A study of Mus musculus with 9 samples.

Results

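Transcripts of 45 DNA repair genes were followed in stem cells of the hair follicle bulge, sorted as CD34+ alpha6+ from C57BL/6J mice under 2 feeding regimens. In dietary restriction (DR, 4 libraries), individually housed mice received each day 70% of the food eaten by ad libitum mice matched for weight and sex. In the ad libitum group (AL, 5 libraries) food was not limited. Each sorted sample pooled cells of 3 mice. The labels name no genetic change, irradiation, age, sex or hair cycle stage for any library, although the series title speaks of irradiation-induced graying, and they name 2 suppliers and housing sites without saying which library came from which. The genes were chosen by name, as members of known repair pathways, with earlier results of these data known. Shares of members called are therefore not independent of the data. All 45 were found among the 35006 gene symbols of the count tables. All 45 also passed the filter on low counts. They comprise 11 genes of homologous recombination, 10 of the Fanconi anaemia pathway, 5 of break sensing and end resection, 4 checkpoint kinases, 8 of nucleotide excision repair, 1 of mismatch repair, 2 of base excision and single-strand break repair and 4 of end joining.

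Cells repair a broken chromosome by copying the sister chromatid (homologous recombination), which is open to them mainly after DNA has been replicated, or by joining the ends directly (end joining), which needs no copy. The Fanconi anaemia pathway unhooks crosslinks that stall replication forks. Nucleotide excision repair cuts out bulky lesions such as those made by ultraviolet light, in dividing and resting cells alike. Many recombination and Fanconi genes are known as targets of E2F transcription factors and peak in S phase, so their transcript level commonly follows the share of cycling cells. Bulge stem cells divide rarely, and are known to rely on end joining after ionizing radiation.

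Libraries held 26119459 to 33559312 gene counts. Levels are in CPM, read counts scaled to a common library total, after TMM, which adjusts the totals so that most genes match between libraries, and a difference is called where edgeR's quasi-likelihood test gave a Benjamini-Hochberg adjusted p under 0.05 over all 15447 tested genes. All 12 bulge markers were present (mean log2 CPM 9.65 to 9.77 in DR, 9.94 to 10.26 in AL), with 7 called lower in DR, Postn and Krt5 among them, and 1 higher. Cd34, one of the sorting antigens, was lower, at 479 ± 102 CPM in DR and 1083 ± 579 CPM in AL (SD, n = 4 and 5). All 20 genes of a G2 and M phase list were lower in DR, with a mean log2 CPM of -0.75 to 0.93 in DR and 2.14 to 4.98 in AL. Of 18 S phase genes, 12 were lower and none higher, with 14 lower and none higher at an unadjusted p under 0.05 (mean log2 CPM 3.57 to 3.84 in DR, 3.96 to 5.58 in AL). AL replicate 5 stood apart from the other AL libraries in both lists: it held the 2.14 and the 3.96, where AL replicates 1 to 4 lay at 4.11 to 4.98 and 4.80 to 5.58. Log2 fold changes of called members are therefore given with and without it. AL replicate 2 was the highest of the S phase list, at 5.58, where the next AL library lay at 5.15. Leaving out AL replicate 5 made the falls of lower members larger. Leaving out another single library could make them smaller, with log2 fold changes up to -2.65 for Brca1, -2.16 for Rad54l and -2.43 for Fanca. Summed CPM of fibroblast markers was 23.0 to 43.6 in DR and 85.3 to 141 in AL (3 of 5 tested lower, 1 higher), of melanocyte markers 125 to 177 in DR and 112 to 231 in AL (3 of 6 lower), of immune markers 21.9 to 76.3 in DR and 16.6 to 53.7 in AL (0 of 5, and 1 higher at an unadjusted p under 0.05), and of endothelial markers 4.48 to 37.0 in DR and 2.18 to 18.1 in AL (0 of 4 either way). It was 2392 to 5807 in DR and 2109 to 4888 in AL for suprabasal epidermis (2 of 7 higher), 66.2 to 99.2 in DR and 67.5 to 96.7 in AL for hair matrix (1 of 5 lower) and 0.68 to 0.86 in DR and 0.60 to 1.16 in AL for erythroid cells (0 of 1). The hair matrix marker Shh was at 0 in all DR libraries and the erythroid marker Hbb-b2 in all 9. The part of these lists in the results below was not tested. In sorted pools, fewer cycling cells and less RNA per cell cannot be told apart. Below, the values in parentheses after a gene are its log2 fold change (DR over AL), SE and edgeR adjusted p.

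In edgeR's fit the recombination and Fanconi members that passed were all lower in DR, and the nucleotide excision members that passed were all higher. This holds for the chosen members only. Of further genes in these pathways, recombination had 12 lower and 6 higher and Fanconi 6 lower and 3 higher. Nucleotide excision had 4 lower and 5 higher among its further genes. Of 45 members, 16 (35.6%) were lower in DR and 7 (15.6%) were higher, where 21.7% of all tested genes were lower and 19.0% higher. In both directions together 23 of 45 (51.1%) were called, against 40.7% of all tested genes. The lower members belonged to recombination (6 of 11), the Fanconi pathway (4 of 10), resection (2 of 5) and the checkpoint (2 of 4). The remaining lower members belonged to base excision and single-strand break repair (1 of 2) and end joining (1 of 4). The higher members were 5 of 8 genes of nucleotide excision repair and the 2 apical checkpoint kinases. In size the directions differed: 13 of the 16 lower members changed at least 2-fold, and none of the 7 higher members did. Mean CPM in DR was 0.351 to 2.25 for those 13 and 14.35 to 121 for the 7 higher members. The share of all tested genes that changed this much was not counted, so the difference is not read as particular to the members. The median log2 fold change was -1.91 for recombination, -0.35 for the Fanconi pathway and 0.42 for nucleotide excision repair, beside -0.03 for all tested genes (lists described, not tested as sets). DR and AL libraries did not overlap for 19 of 45 members (42.2%), as for 32.9% of all tested genes. Without AL replicate 5, 19 members were lower and 7 higher.

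**Figure D1:**
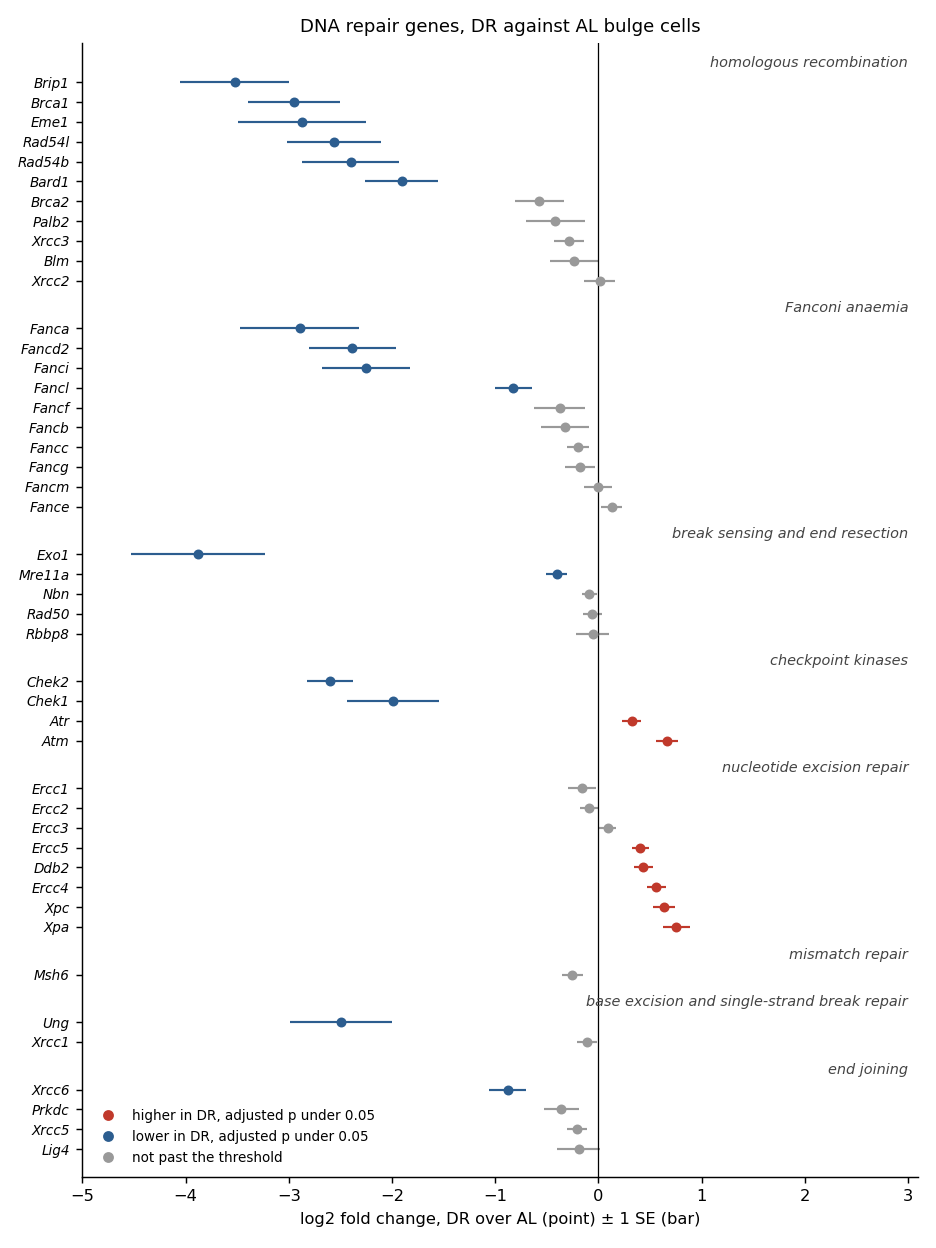
Log2 fold change (x axis, DR over AL, point, with a bar of 1 SE to each side) of the 45 repair genes, grouped by pathway (y axis). Points left of -1 are the 13 members lower by at least 2-fold, mostly in the recombination and Fanconi groups, and the 7 points called higher all lie between 0.32 and 0.75.

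Homologous recombination showed 6 lower and no higher genes of 11 (none higher at an unadjusted p under 0.05, nor by DESeq2 or limma). Brca1, which with its partner Bard1 forms the ubiquitin ligase that steers breaks to recombination, stood at 2.30, 2.0, 1.2 and 1.19 CPM in the DR libraries, against 12.5, 22.1, 11.6, 14.8 and 3.80 CPM in the AL libraries. Every DR library lay below every AL library, and AL replicate 5 was the lowest of AL (log2 fold change -2.95, SE 0.45, edgeR adjusted p = 0.000535). Bard1 stood at 2.09, 2.42, 2.14 and 1.64 CPM in DR and 7.26, 13.2, 6.67, 8.72 and 3.01 CPM in AL, again without overlap (-1.91, SE 0.35, adjusted p = 0.00167). Brip1, a helicase that binds Brca1, had the largest fall of this group, with 0.180, 0.718, 0.376 and 0.709 CPM in DR and 5.34, 9.55, 4.89, 7.62 and 1.69 CPM in AL. Its groups were also apart (-3.52, SE 0.53, adjusted p = 0.0005), although in DR the gene rested on few reads, with 5 counts in the lowest library. The strand-exchange motors Rad54l and Rad54b fell as well. Rad54l stood at 1.15, 1.02, 0.789 and 1.29 CPM in DR and 5.60, 12.2, 4.63, 7.14 and 1.88 CPM in AL (-2.56, SE 0.46, adjusted p = 0.00136), with every DR library under every AL library. Rad54b stood at 1.26, 2.36, 1.77 and 1.68 CPM in DR and 9.21, 17.2, 7.68, 10.4 and 2.26 CPM in AL (-2.40, SE 0.47, adjusted p = 0.00221), where DR replicate 2 exceeded AL replicate 5. In GENCODE M21, 39.1% of the exon bases of Rad54b are shared with Fsbp on the same strand, so its reads are uncertain. Eme1, the partner subunit of a nuclease that resolves joint molecules, stood at 0.288, 0.599, 0.601 and 0.387 CPM in DR and 3.18, 6.86, 3.29, 3.47 and 0.414 CPM in AL (-2.87, SE 0.62, adjusted p = 0.00387), and AL replicate 5 fell inside the DR range. Leaving out AL replicate 5 gave log2 fold changes of -3.18 for Brca1, -2.11 for Bard1, -3.75 for Brip1, -2.80 for Rad54l, -2.65 for Rad54b and -3.15 for Eme1.

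The other 5 recombination genes did not pass. Brca2, which loads the recombinase onto single strands, averaged 15.1 ± 3.47 CPM in DR and 22.4 ± 6.71 CPM in AL (SD, n = 4 and 5), and its log2 fold change of -0.57 had an SE of 0.23 and an adjusted p of 0.0722 by edgeR. With AL replicate 5 left out it passed (-0.71, adjusted p = 0.0137). Palb2, the bridge between Brca1 and Brca2, had a log2 fold change of -0.42 (adjusted p = 0.268), the helicase gene Blm -0.24 (adjusted p = 0.436) and the recombinase paralogue Xrcc3 -0.28 (adjusted p = 0.134). Xrcc2, another of the paralogues, averaged 7.40 ± 0.529 CPM in DR and 7.34 ± 1.24 CPM in AL (SD, n = 4 and 5). Its log2 fold change was 0.01 (edgeR adjusted p = 0.961). The fitted ratio of DR to AL was 0.129 for Brca1, 0.672 for Brca2 and 0.749 for Palb2.

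In the Fanconi pathway 4 of 10 genes were lower and none higher, by edgeR, DESeq2 and limma alike, nor was any higher at an unadjusted p under 0.05. Across both pathways the mean log2 CPM of the 21 genes was 1.83 to 2.21 in DR, 2.25 in AL replicate 5 and 3.18 to 3.85 in the other AL libraries. The G2 and M phase list was likewise lowest in DR and next in AL replicate 5, and its part in these falls was not tested. Fancd2 and Fanci form the clamp that is ubiquitinated at crosslinks. Fancd2 stood at 2.44, 2.63, 1.84 and 2.06 CPM in the DR libraries, against 9.46, 21.6, 9.22, 14.6 and 3.80 CPM in the AL libraries (log2 fold change -2.38, SE 0.42, edgeR adjusted p = 0.00124). Fanci stood at 1.51, 1.79, 1.5 and 1.64 CPM in DR and 6.54, 13.7, 6.87, 9.30 and 2.07 CPM in AL (-2.25, SE 0.43, adjusted p = 0.00195). For both genes the diets did not overlap, and AL replicate 5 came nearest to DR. Fanca, a scaffold of the core complex, stood at 1.33, 1.71, 0.940 and 1.81 CPM in DR and 9.17, 22.3, 8.18, 12.5 and 1.77 CPM in AL (-2.89, SE 0.57, adjusted p = 0.00244), where AL replicate 5 lay inside the DR range. Fancl, the ubiquitin ligase subunit of the core complex, stood at 4.39, 5.36, 2.93 and 4.09 CPM in DR and 6.75, 8.57, 7.64, 7.07 and 7.19 CPM in AL (-0.83, SE 0.18, adjusted p = 0.00395). Unlike the 3 others, Fancl was within the range of the other AL libraries in AL replicate 5. Leaving out that library gave log2 fold changes of -2.61 for Fancd2, -2.49 for Fanci, -3.16 for Fanca and -0.84 for Fancl. The remaining core subunits and the anchor of the complex did not pass: log2 fold changes were -0.33 (adjusted p = 0.282) for Fancb, -0.20 (adjusted p = 0.177) for Fancc, 0.13 (adjusted p = 0.324) for Fance, -0.38 (adjusted p = 0.246) for Fancf, -0.18 (adjusted p = 0.353) for Fancg and -0.003 (adjusted p = 0.989) for Fancm. Fancc averaged 23.9 ± 3.03 CPM in DR and 27.4 ± 2.84 CPM in AL (SD, n = 4 and 5), with AL replicate 5 the highest of all 9 libraries. Shared exon bases on the opposite strand concern, among others, Fancl (17.0%, with Vrk2), Fanci (13.4%, with Polg) and Fanca (8.6%, with Zfp276). Outside this pathway they include Eme1 (9.0%, with Lrrc59), Xrcc6 (8.5%, with Desi1) and Ercc2 (18.1%, with Gm26852). The library kit does not mark strand, so reads there cannot be assigned to 1 gene.

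**Figure D2:**
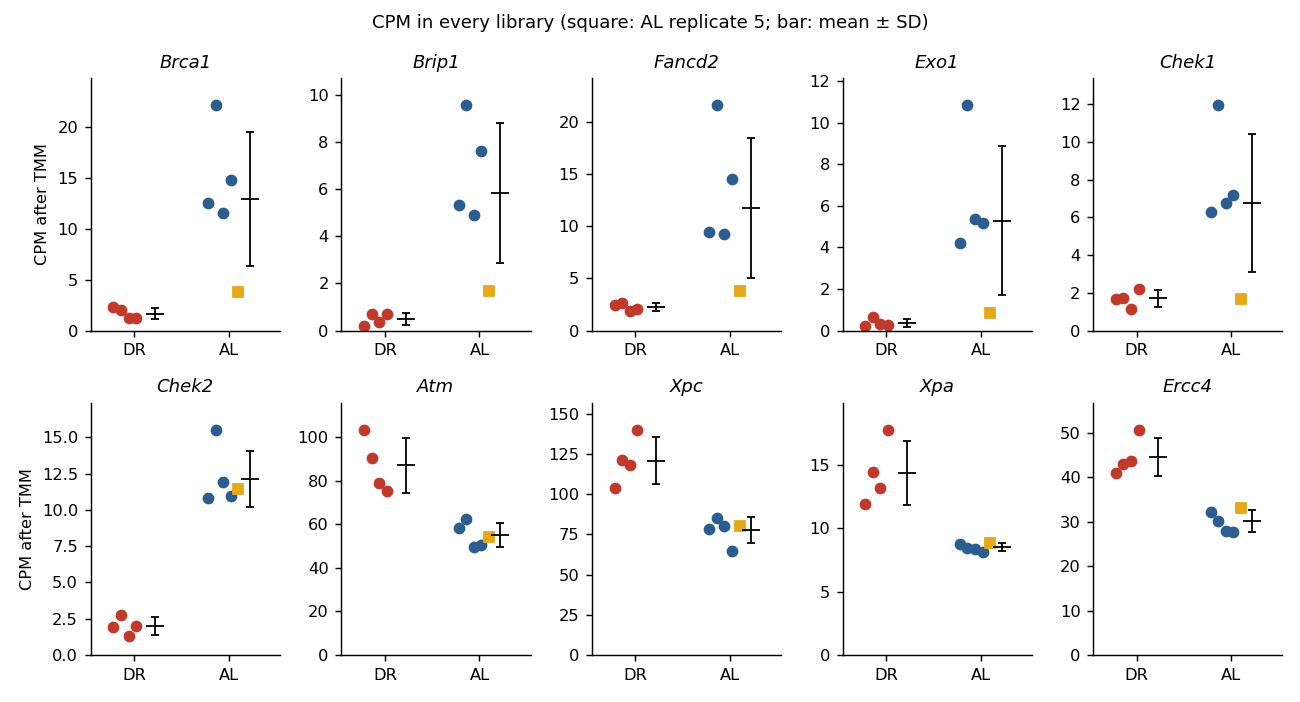
CPM (y axis, from 0) of 10 repair genes in each DR and AL library (points), with the mean ± SD beside them; the square is AL replicate 5. In Brca1, Brip1, Fancd2, Exo1 and Chek1 the square lies near or inside the DR points, in Chek2 it lies with AL, and in Atm, Xpc, Xpa and Ercc4 all DR points are above all AL points.

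Promoters are shown because these transcripts fell together: in each of the 2 lists, for up to 3 called genes with the smallest p whose window held a searched motif, which in the Fanconi list were 2. The windows run from 250 bases before the annotated start to 50 bases after it, on the gene's strand, from RefSeq on GRCm38.p6, which is another build than that of the counts. Capitals mark matches, on either strand, to an E2F-type element (TTGGCGC or TTCCCGC or TTGCCGC or TTCGCGC), to a CHR element (TTTGAA or TTCGAA), which the DREAM repressor complex is known to bind, or to a CCAAT box (CCAAT); no 2 matches overlapped in these windows.
Brip1: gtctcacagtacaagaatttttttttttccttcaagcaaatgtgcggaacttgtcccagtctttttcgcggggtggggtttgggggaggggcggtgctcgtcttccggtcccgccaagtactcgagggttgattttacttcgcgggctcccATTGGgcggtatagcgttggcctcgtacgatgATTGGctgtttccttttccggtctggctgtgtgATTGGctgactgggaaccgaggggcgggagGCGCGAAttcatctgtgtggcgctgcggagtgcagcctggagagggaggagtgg
Brca1: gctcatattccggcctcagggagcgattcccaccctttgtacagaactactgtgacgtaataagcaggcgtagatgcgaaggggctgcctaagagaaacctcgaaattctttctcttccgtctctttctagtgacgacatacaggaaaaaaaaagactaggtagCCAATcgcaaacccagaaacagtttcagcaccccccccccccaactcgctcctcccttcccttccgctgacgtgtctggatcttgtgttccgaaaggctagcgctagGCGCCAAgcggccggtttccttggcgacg
Rad54l: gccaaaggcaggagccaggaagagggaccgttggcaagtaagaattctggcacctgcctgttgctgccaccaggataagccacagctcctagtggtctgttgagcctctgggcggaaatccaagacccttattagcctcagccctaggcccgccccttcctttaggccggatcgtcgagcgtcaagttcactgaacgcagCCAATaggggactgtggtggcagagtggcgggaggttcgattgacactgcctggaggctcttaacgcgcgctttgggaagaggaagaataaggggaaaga
Fanci: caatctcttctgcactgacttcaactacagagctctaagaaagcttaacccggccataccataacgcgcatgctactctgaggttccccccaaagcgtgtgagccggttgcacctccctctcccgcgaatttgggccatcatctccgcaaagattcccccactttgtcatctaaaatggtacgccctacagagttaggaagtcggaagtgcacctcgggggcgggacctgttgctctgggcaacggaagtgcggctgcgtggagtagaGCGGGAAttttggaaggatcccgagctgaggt
Fanca: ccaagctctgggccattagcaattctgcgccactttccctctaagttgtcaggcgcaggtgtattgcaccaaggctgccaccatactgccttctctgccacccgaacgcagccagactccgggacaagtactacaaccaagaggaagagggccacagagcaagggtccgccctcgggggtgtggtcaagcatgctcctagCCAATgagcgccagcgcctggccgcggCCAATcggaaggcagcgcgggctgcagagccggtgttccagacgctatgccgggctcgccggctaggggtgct

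The Brip1 window (chr11:86201144-86201443, minus strand) held an E2F-type match that begins 4 bases before the start and 3 CCAAT boxes, all on the reverse strand. That of Brca1 (chr11:101551906-101552205, minus strand) had an E2F-type match from base 22, with the start as base 1, and 1 CCAAT box. The window of Rad54l (chr4:116123641-116123940, minus strand) had 1 CCAAT box, that of Fanci (chr7:79392088-79392387, plus strand) an E2F-type match from base 19, and that of Fanca (chr8:123318527-123318826, minus strand) 2 CCAAT boxes. The table held 36 windows of 34 members; Rad50, Rad54b, Xrcc2, Xpc, Ddb2, Fancd2, Nbn, Rbbp8, Prkdc, Exo1 and Ercc3 were not in it. An E2F-type match was found in 20 of 36 member windows (55.6%), beside 16.2% of the 12435 windows of tested genes and 9.57% of all 32851 windows. By call, 7 of 14 windows of lower genes had it, 2 of 5 of higher genes and 11 of 17 of genes that did not pass. A CCAAT box was present in 24 of 36 member windows (66.7%), beside 37.3% for tested genes, and in 8 of 14, 4 of 5 and 12 of 17 of the same classes. The CHR letters were in 2 of 14 windows of lower genes, in 2 of 5 of higher genes and in none of 17 of the rest, beside 13.6% for tested genes. Median GC content was 58.3% in member windows and 60.7% in those of tested genes.

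Of 5 genes that sense a break and trim its ends, 2 were lower and none higher (none at an unadjusted p under 0.05). Exo1, which carries out long-range resection, stood at 0.216, 0.628, 0.301 and 0.258 CPM in the DR libraries, against 4.19, 10.8, 5.36, 5.18 and 0.866 CPM in the AL libraries. All DR libraries were below all AL libraries, with AL replicate 5 the lowest of AL, and its log2 fold change was the lowest of the 45 genes (log2 fold change -3.88, SE 0.65, edgeR adjusted p = 0.000923). Its lowest DR library held 6 counts, and without AL replicate 5 its log2 fold change was -4.15. Mre11a, the nuclease of the complex with Rad50 and Nbn that first binds broken ends, stood at 28.6, 31.3, 25.5 and 22.6 CPM in DR and 35.4, 39.0, 36.2, 33.5 and 34.6 CPM in AL. The groups did not overlap and the change was small (-0.41, SE 0.10, adjusted p = 0.00882; -0.42 without AL replicate 5). Rad50 had a log2 fold change of -0.06 (adjusted p = 0.657), Nbn -0.09 (adjusted p = 0.381) and Rbbp8, the cofactor that starts resection, -0.06 (adjusted p = 0.804); none passed. Rbbp8 averaged 86.1 ± 20.8 CPM in DR and 89.6 ± 12.5 CPM in AL (SD, n = 4 and 5).

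The checkpoint kinases split by tier. Atm and Atr, the large kinases that sense breaks and bare single strands, were higher in DR. Atm stood at 103, 90.5, 78.9 and 75.3 CPM in the DR libraries, against 58.3, 62.4, 49.3, 50.6 and 54.1 CPM in the AL libraries (log2 fold change 0.66, SE 0.11, edgeR adjusted p = 0.000896). Atr stood at 58.7, 57.1, 48.9 and 55.1 CPM in DR and 47.4, 48.2, 37.9, 42.3 and 43.7 CPM in AL (0.32, SE 0.09, adjusted p = 0.0159). Neither overlapped between diets, and Atr did not pass with library size only in place of TMM (0.26, adjusted p = 0.0971). With AL replicate 5 left out, Atm had a log2 fold change of 0.66 and Atr of 0.32. Their effector kinases were lower. Chek1, downstream of Atr, stood at 1.69, 1.74, 1.17 and 2.23 CPM in DR and 6.29, 11.9, 6.77, 7.17 and 1.66 CPM in AL (-1.99, SE 0.45, adjusted p = 0.00492), with AL replicate 5 inside the DR range (-2.23 without it). Chek2, downstream of Atm, stood at 1.91, 2.78, 1.28 and 2.0 CPM in DR and 10.8, 15.5, 11.9, 10.9 and 11.5 CPM in AL, and had the smallest p of all members (-2.60, SE 0.22, adjusted p = 2.1e-05). In Chek2 the groups were apart, AL replicate 2 was the highest and AL replicate 5 lay with the 3 others, and the log2 fold change without it was -2.62.

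Of the 8 nucleotide excision repair members, 5 were higher in DR and none lower (none at an unadjusted p under 0.05, nor by DESeq2 or limma). Xpc, which finds distorted helices across the genome, stood at 104, 121, 118 and 140.1 CPM in the DR libraries, against 78.6, 85.0, 80.1, 64.4 and 80.5 CPM in the AL libraries (log2 fold change 0.64, SE 0.11, edgeR adjusted p = 0.000893). Xpa, which verifies the lesion, stood at 11.9, 14.5, 13.2 and 17.8 CPM in DR and 8.74, 8.43, 8.41, 8.10 and 8.88 CPM in AL and had the largest rise among the members (0.75, SE 0.13, adjusted p = 0.0011). Ercc4, the catalytic subunit of the nuclease that cuts upstream of the lesion, stood at 41.0, 43.0, 43.6 and 50.8 CPM in DR and 32.1, 30.2, 27.9, 27.7 and 33.2 CPM in AL (0.56, SE 0.09, adjusted p = 0.000813). In all 3 every DR library exceeded every AL library. Ercc5, the nuclease that cuts downstream of it, averaged 78.2 ± 6.11 CPM in DR and 59.1 ± 4.42 CPM in AL (SD, n = 4 and 5) (0.41, SE 0.08, adjusted p = 0.00301). Ddb2, the sensor of ultraviolet lesions, averaged 50.6 ± 2.58 CPM in DR and 37.5 ± 4.18 CPM in AL (SD, n = 4 and 5) (0.43, SE 0.09, adjusted p = 0.00396). Both were also without overlap, and 26.7% of the exon bases of Ddb2 lie opposite exons of Acp2. The 3 others did not pass: Ercc1, the partner of Ercc4, had a log2 fold change of -0.16 (adjusted p = 0.383), and the helicase subunits of the transcription factor TFIIH had -0.09 (adjusted p = 0.437) for Ercc2 and 0.09 (adjusted p = 0.432) for Ercc3. Without AL replicate 5 the log2 fold changes were 0.65 for Xpc, 0.77 for Xpa, 0.60 for Ercc4, 0.45 for Ercc5 and 0.47 for Ddb2. That library was not the lowest AL library in any of the 7 members called higher. The mean log2 CPM of the 8 genes was 5.31 to 5.45 in DR and 5.02 to 5.13 in AL, with AL replicate 5 at 5.13.

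**Figure D3:**
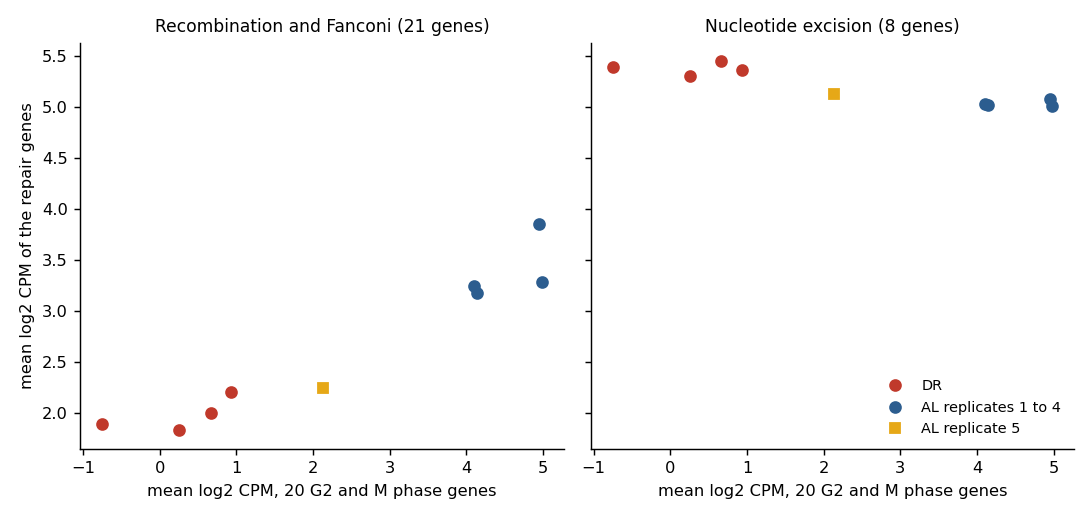
Mean log2 CPM of the 21 recombination and Fanconi genes (left) and of the 8 nucleotide excision genes (right) on the y axis, against the mean log2 CPM of 20 G2 and M phase genes (x axis), 1 point per library. AL replicate 5 (square) lies next to DR on the left, at 2.25, and with the other AL libraries on the right, at 5.13.

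Among the remaining pathways, 2 of 7 genes were lower and none higher; at an unadjusted p under 0.05 Msh6 was also lower and still none higher. Ung, the glycosylase that removes uracil from DNA, stood at 1.73, 1.68, 2.22 and 2.52 CPM in the DR libraries, against 8.34, 22.4, 12.3, 11.6 and 2.56 CPM in the AL libraries (log2 fold change -2.50, SE 0.49, edgeR adjusted p = 0.00233), with AL replicate 5 just above the highest DR library (-2.75 without it). Xrcc1, the scaffold of single-strand break repair, averaged 55.5 ± 6.09 CPM in DR and 59.9 ± 5.02 CPM in AL (SD, n = 4 and 5) and did not pass (-0.11, adjusted p = 0.381). Xrcc6, a subunit of the Ku ring that caps ends for joining, stood at 20.4, 18.1, 12.5 and 11.0 CPM in DR and 27.3, 33.1, 28.4, 29.8 and 24.5 CPM in AL, without overlap (-0.88, SE 0.18, adjusted p = 0.00268; -0.93 without AL replicate 5). Its Ku partner Xrcc5 had a log2 fold change of -0.20 (adjusted p = 0.111), the kinase gene Prkdc, which Ku recruits, -0.36 (adjusted p = 0.11), and the ligase gene Lig4 -0.19 (adjusted p = 0.488). Msh6, which recognises base mismatches, had -0.25 (adjusted p = 0.0738). Xrcc5 and Msh6 passed without AL replicate 5 (adjusted p = 0.0445 and 0.0454), and Prkdc without DR replicate 1 (-0.56, adjusted p = 0.00831). Of the 4 end-joining genes, DESeq2 called 1 lower and limma 3, with Prkdc among the latter (-0.49, limma adjusted p = 0.0271). Neither called any of them higher.

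Genes whose products act as partners are set side by side as the log2 ratio of their CPM within a library. These 5 pairs were picked after the single values were known, so the ratios are given as a description and no p-value is drawn from them. The ratio of Xrcc6 to Xrcc5 was -1.18 ± 0.33 in DR and -0.47 ± 0.11 in AL (SD, n = 4 and 5). That of Mre11a to Rad50 was -0.73 ± 0.07 in DR and -0.38 ± 0.09 in AL, and that of Brca1 to Bard1 -0.35 ± 0.40 in DR and 0.68 ± 0.20 in AL. In these 3 pairs every DR library lay below every AL library, and how often this holds for pairs of genes in general was not counted. The ratio of Ercc4 to Ercc1 was 1.24 ± 0.37 in DR and 0.50 ± 0.19 in AL, with the lowest DR library inside the AL range. For Fancd2 to Fanci it was 0.46 ± 0.19 in DR and 0.63 ± 0.17 in AL, with overlap.

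**Figure D4:**
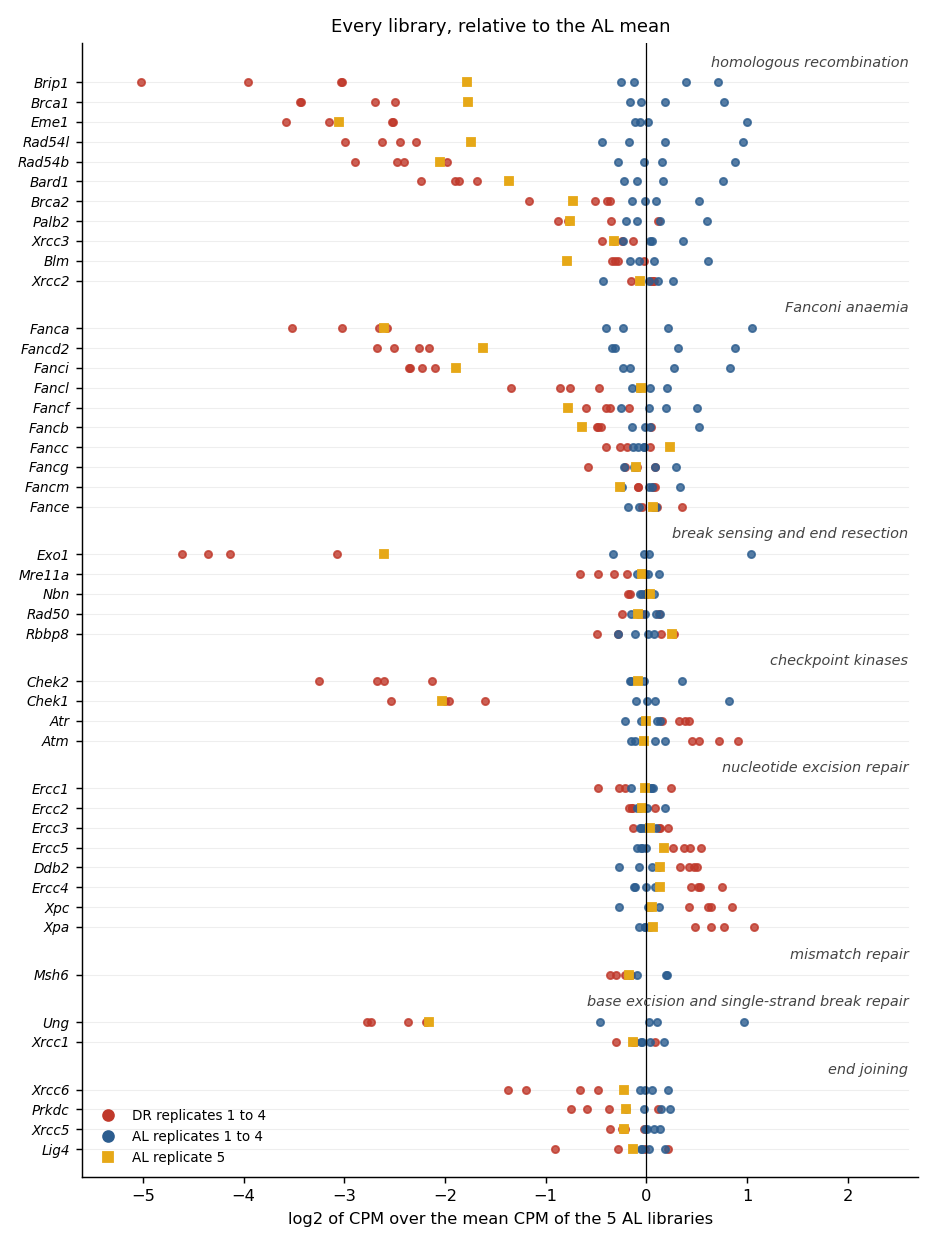
Log2 of CPM over the mean CPM of AL (x axis) for each member (y axis) in every library. DR points lie left of all AL points in 12 of the 16 lower genes (in Rad54b, Eme1, Fanca and Chek1 they overlap AL replicate 5) and right of them in Atm, Atr, Xpc, Xpa, Ercc4, Ercc5 and Ddb2; the square, AL replicate 5, is the lowest AL value in 13 of the 16 lower genes, the exceptions being Fancl, Mre11a and Chek2.

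Per length of transcript, Xpc, Rbbp8, Ddb2 and Xrcc1 had the highest levels of the 45 genes in DR. In CPM per kilobase of the longest coding transcript (GENCODE M21), Xpc ranked 1 of 45 in DR and 3 in AL (33.3 ± 4.09 in DR and 21.4 ± 2.15 in AL). Rbbp8 ranked 2 in DR and 1 in AL (24.4 ± 5.89 in DR and 25.4 ± 3.55 in AL). Ddb2 had 22.7 ± 1.16 in DR and 16.8 ± 1.88 in AL and Xrcc1 21.9 ± 2.41 in DR and 23.7 ± 1.99 in AL, within the spread of Rbbp8 in DR. Exo1 had the lowest level in both diets (0.0450 ± 0.0242 in DR and 0.678 ± 0.460 in AL), with Brip1 next (0.0715 ± 0.0381 in DR and 0.840 ± 0.428 in AL). Chek2 ranked 34 in DR and 24 in AL (0.875 ± 0.271 in DR and 5.34 ± 0.854 in AL), and Ung 33 in DR and 23 in AL.

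**Figure D5:**
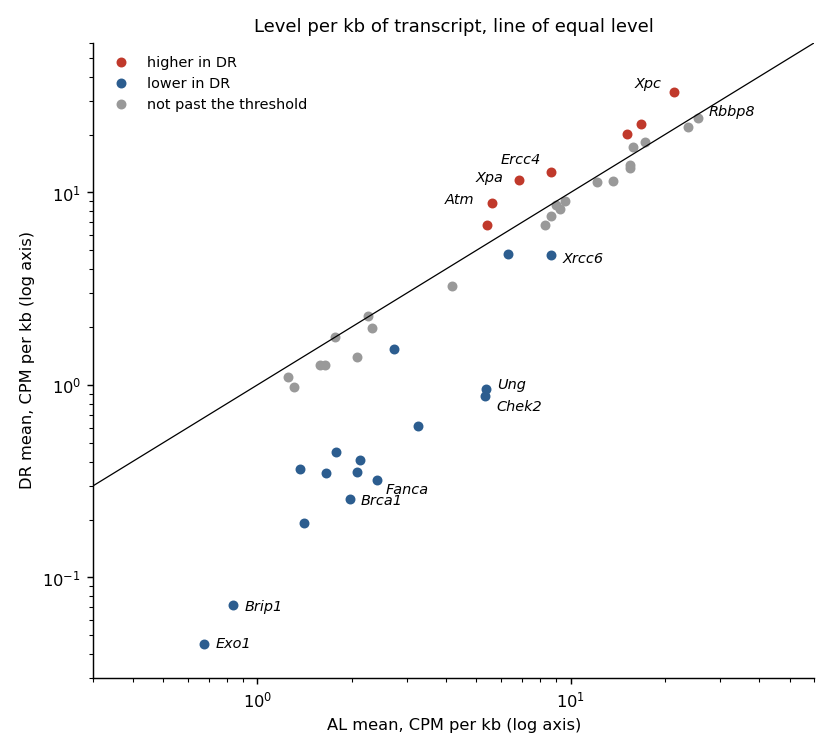
Mean level in DR (y axis) against AL (x axis), both in CPM per kilobase of transcript on log axes, for the 45 genes; the line marks equal levels. The 16 lower genes lie below the line, most of them at under 6 CPM per kilobase in AL, and the 7 higher genes lie above it at over 5.

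Other genes of the same pathways, from lists typed from textbook membership, were described in the same way: of 137 tested, 41 (29.9%) were lower and 20 (14.6%) higher, beside the 21.7% and 19.0% of all genes, with a median log2 fold change of -0.13. In recombination 12 of 31 were lower and 6 higher. Parpbp (-4.01, adjusted p = 0.000449) and the ATPase gene Fignl1 (-3.69, adjusted p = 0.000928) were among the lower, and the topoisomerase gene Top3a (0.41, adjusted p = 0.00768), Eme2 (0.51, adjusted p = 0.00798) and Brcc3 (0.41, adjusted p = 0.0107), a deubiquitinase of a complex that holds Brca1, were higher. Of 11 further Fanconi genes 6 were lower, with Cenps (-3.22, adjusted p = 7.9e-05), Faap100 (-1.49, adjusted p = 0.00021) and the conjugating enzyme gene Ube2t (-1.57, adjusted p = 0.00028), which acts with Fancl. The 3 higher were the nuclease genes Dclre1a (0.54, adjusted p = 0.000848) and Dclre1b (0.53, adjusted p = 0.00971) and Wdr48 (0.34, adjusted p = 0.0114). In break signalling 3 of 12 were lower, Dna2 (-2.59, adjusted p = 0.00334), a nuclease that resects in parallel to Exo1, Samhd1 (-0.55, adjusted p = 0.00892) and Trp53bp1 (-0.53, adjusted p = 0.00261), which shields ends from resection, and 1 was higher, Zfyve26 (0.77, adjusted p = 0.000273). In the checkpoint the fork protein genes Clspn (-4.25, adjusted p = 0.00059), which carries the signal from Atr to Chek1, and Timeless (-3.15, adjusted p = 0.000712) were lower with Cdc25a (-0.50, adjusted p = 0.0137), and Rad17 (0.40, adjusted p = 0.0132), the clamp loader, was higher, of 13 tested.

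The other 18 genes of nucleotide excision repair were called in both directions: 4 were lower and 5 higher, with a median of -0.10. Cetn2 (-0.87, adjusted p = 7.7e-05), which binds Xpc, and the TFIIH subunit gene Gtf2h3 (-0.41, adjusted p = 0.00283) were among the lower. Xab2 (0.63, adjusted p = 0.000139), which binds Xpa, Cul4b (0.45, adjusted p = 0.000737) and Ddb1 (0.40, adjusted p = 0.00306), the partner of Ddb2, were higher. In base excision and single-strand break repair 5 of 24 were lower and none higher (4 higher at an unadjusted p under 0.05), among them the strand break sensor Parp1 (-1.36, adjusted p = 3.2e-05), the ligase gene Lig1 (-1.78, adjusted p = 0.000301) and the glycosylase gene Neil3 (-4.70, adjusted p = 0.000659). In end joining Xrcc4 (-0.57, adjusted p = 0.00826), the partner of Lig4, and the polymerase gene Poll (-0.40, adjusted p = 0.037) were lower, of 5 tested. Of 17 genes of translesion synthesis and direct reversal 5 were lower, with Poli (-1.06, adjusted p = 0.000281), Zranb3 (-0.95, adjusted p = 0.00133) and Primpol (-0.63, adjusted p = 0.0141), and 3 were higher, the translesion polymerase genes Rev1 (0.43, adjusted p = 0.00735) and Rev3l (0.47, adjusted p = 0.0149) and Ube2b (0.31, adjusted p = 0.0206). In mismatch repair 1 of 6 was lower and 1 higher, which was Msh3 (0.30, adjusted p = 0.00712), a subunit of a mismatch sensor.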

How the data were processed

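RNA of sorted bulge cells was counted in 4 DR and 5 AL libraries. The authors deposited whole-number read counts per gene symbol without normalization, 1 table per library. The submitters' processing notes list TopHat2 2.1.0 with Bowtie, HTSeq 0.11.2 and FastQC 0.11.5, and the mm9 build. Not given in the sources used here were annotation, strand setting and handling of multiply mapped reads. Per the labels' protocols the kit was TruSeq RNA v2, read for 51 cycles from a single end. The 6 lines that name no gene held 25.9% to 30.7% of each library and were left out.

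Counts were fitted with edgeR 4.0.16 (R 4.3.3): filterByExpr by group, TMM, quasi-likelihood on diet alone, Benjamini-Hochberg over 15447 genes, threshold 0.05. SE is that implied by the F statistic. Log2 CPM of single libraries used 0.5 added counts. Replicates are separate samples by their titles. Nothing says whether each came from its own mice. The p-values therefore reflect only how far these libraries scatter, part of which can be technical. No library was a repeat of another: chi-square over its degrees of freedom ran between 24.6 and 110 for pairs within a group. DESeq2 1.42.0 and limma 3.58.1 served as alternatives.

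CPM is given by library for called genes with an absolute log2 fold change of at least 0.5 and a mean log2 CPM of at least 0, at most 6 per pathway and direction, and for Mre11a and Atr, added after their values were seen; of other pathway genes, up to 3 per list and direction are named, and 3 of those selected are left out here. Of 141 listed other genes, 122 were found as written, 16 under a RefSeq synonym and 3 not. Members and lists were chosen with earlier results of these data known.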

Additional observations from a re-analysis of the deposited data

Results flagged for a closer look

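In 90 groups of library values, 1 for each member and diet, 5 held a library whose gap to the rest was large for the group; chance alone gives about 1 in 20. Xrcc2 was at 6.61 CPM in DR replicate 3, the lowest of DR. Fancb was at 4.91 CPM in DR replicate 2, the highest of DR, and Ercc2 at 36.4 CPM in DR replicate 1, likewise the highest. Fancc was at 32.2 CPM in AL replicate 5, the highest of AL. Chek2 was at 15.5 CPM in AL replicate 2, also the highest of AL, and without that library its log2 fold change was -2.48 (edgeR adjusted p = 6.8e-05).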

How the results depend on the processing

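Of the 23 called members, 22 passed in all 17 alternatives run at the threshold of 0.05, the exception being Atr with library size only; of 22 members that did not pass, 7 did in at least 1 (Brca2, Palb2, Fancb, Ercc1, Msh6, Xrcc5 and Prkdc). Lower members numbered 16 to 20 and higher members 6 or 7 across all settings. At an adjusted p under 0.01, 3937 genes were called in place of 6290. Of the excision, mismatch and end-joining members, 2 were lower, but 4 with limma-voom and quality weights and 2 to 4 with 1 library left out. Genes near 0 changed sign. Xrcc2 had a log2 fold change of -0.063 with library size only, -0.051 with upper-quartile scaling, -0.043 with limma-voom and -0.081 to 0.098 with 1 library left out. Fancm had 0.014 with DESeq2 size factors, 0.013 with the DESeq2 Wald test, 0 with no filter and -0.062 to 0.106 with 1 library left out; likewise Rad50 had -0.121 to 0.002 and Rbbp8 -0.183 to 0.064. In the main fit each of these log2 fold changes was smaller in size than its SE: 0.011 (SE 0.152) for Xrcc2, -0.003 (SE 0.135) for Fancm, -0.058 (SE 0.095) for Rad50 and -0.057 (SE 0.16) for Rbbp8. The cause of the sign changes was not tested. With a replicate block, in which AL replicate 5 has no partner, 6433 genes and 20 lower members were called, with Brca2, Palb2, Fancb and Prkdc added; same-numbered libraries did not deviate together in every pair (correlations 0.03 to 0.23), so the numbers are not taken to pair them. Lower calls were 53.2% of all calls, and 61.2% with library size only. Exo1, Brip1 and Eme1 rest on under 10 counts in their lowest DR library, which limits the precision of their folds.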
